A study of Ovis aries with 16 samples.

Results

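ARHGAP36 (ENSOARG00000012814) was followed through the testicular RNA of 16 Merino male sheep. It is 1 of the 25197 genes in the processed files and 1 of the 1763 whose identifier the study pairs with a symbol. The gene was chosen because of its difference between diets in these same libraries. That difference is therefore given here as a description, without a test.

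ARHGAP36 is best known as an antagonist of protein kinase A. It binds the catalytic subunit of the kinase, blocks its activity and promotes its degradation, and it can thereby turn on the Gli factors at the end of the Hedgehog pathway. Protein kinase A is activated by cyclic AMP. In the testis it works downstream of the receptors for FSH in Sertoli cells and for LH in Leydig cells. RNA abundance does not measure kinase activity, so the name of antagonist was not examined by these data.

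Testes were sampled from adult sheep, 8 on a high diet designed to raise body mass by 10% over 65 days (well-fed) and 8 on a low diet designed to lower it by the same share (underfed). No sheep had another treatment, and each gave 1 library of whole testis tissue. The values are CPM, the reads on a gene as a share of the reads on all genes, scaled to a common total, with 9552149 to 18230076 such reads in well-fed and 7646547 to 14690953 in underfed sheep. In the tests, CPM was divided by the library's TMM factor, a scaling that aligns most genes across libraries, and log2(value + 1) was used, so a log2 difference understates the change of low genes. High diet replicates 5 and 8 stood apart in their TMM factors, of 0.859 and 0.739 against 0.961 to 1.13 in the other libraries. They also had the highest scores, 78.2 and 104, on a first component that held 59.6% of the variance. At its other end low diet replicates 6, 4 and 8 had scores of -74.1, -62.9 and -61.9, and these were left out singly but not together. The difference of ARHGAP36 and the counts of genes called below are given with and without high diet replicates 5 and 8.

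ARHGAP36 was expressed more under the low diet, and the diets did not overlap. In well-fed sheep it was lowest in replicate 8 at 155 CPM and highest in replicate 4 at 413 CPM, with a median of 322 CPM. In underfed sheep it was lowest in replicate 5 at 542 CPM and highest in replicate 2 at 1033 CPM, with a median of 811 CPM. The mean was 301 ± 91.7 CPM (SD, n = 8) in well-fed and 785 ± 216 CPM (SD, n = 8) in underfed sheep, a ratio of 2.61. The lowest underfed sheep was 130 CPM above the highest well-fed sheep, or 1.31 times its value. Among the 11148 genes tested, 0.762% were higher in every underfed than in every well-fed library, a share from which nothing is read for a gene chosen on this contrast. In bulk tissue, fewer cells of a type and less RNA per cell cannot be told apart.

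**Figure D1:**
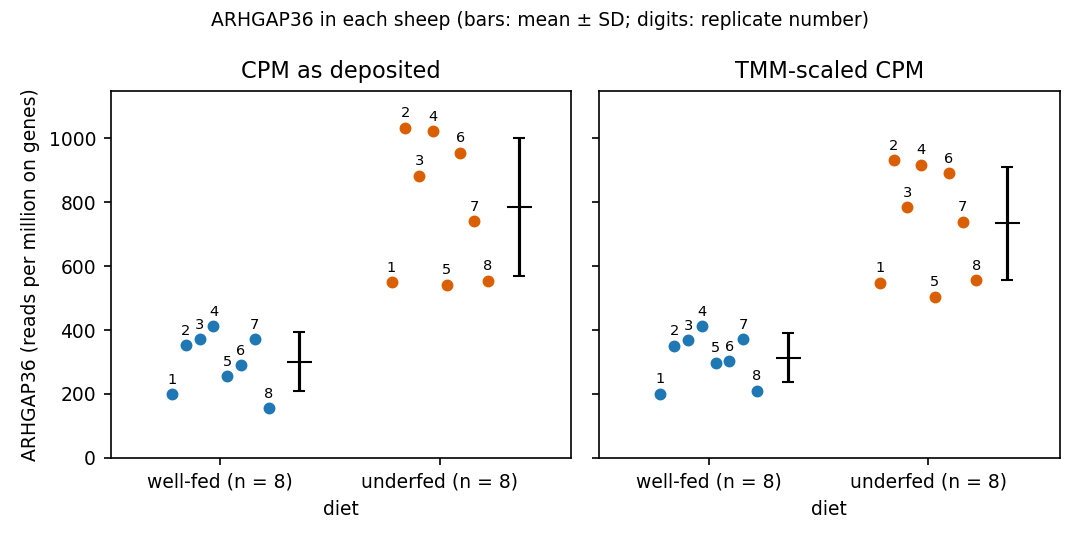
ARHGAP36 in each of 16 sheep (points, digits are replicate numbers) in CPM as deposited (left) and divided by the TMM factor (right), with the mean ± SD of each diet (n = 8). On both scales every underfed sheep lies above every well-fed sheep, from 542 CPM upwards against at most 413 CPM as deposited.

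Scaling moved single sheep more than the order of the diets. On TMM-scaled CPM the mean was 314 ± 76.6 in well-fed and 734 ± 177 in underfed sheep (SD, n = 8 in each), a ratio of 2.34. The ranges were 201 to 411 and 505 to 933, so the gap between the diets was 93.2 TMM-scaled CPM. High diet replicate 8 rose from 155 CPM to 210 TMM-scaled CPM, and high diet replicate 1 became the lowest sheep at 201. The log2 difference, underfed minus well-fed, was 1.23 with a standard error of 0.20. It was 1.40 on library totals, where the median log2 difference of all genes tested was 0.17 against 0.01 with TMM factors. Without high diet replicates 5 and 8 it was 1.13, and with testis weight as a covariate it was 0.90 (standard error 0.25). The study reports lower testis mass in underfed sheep, so this covariate overlaps with diet. Nothing about the part of testis weight is read from that fit.

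Within each diet the sheep were not evenly spread. In 5 of the 8 underfed sheep TMM-scaled CPM was 739 or more, and in replicates 1, 5 and 8 it was between 505 and 557. In well-fed sheep replicates 1 and 8, at 201 and 210, lay below the other 6, at 298 to 411. The coefficient of variation of CPM was 30.4% in well-fed and 27.5% in underfed sheep. On the log2 scale the SD within diets was 0.37 against a median of 0.49 over the genes tested, and 26.8% of these had a smaller one. Every library held at least 2327 reads on the gene, so counting error was at most 2.07% of a value.

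The genes around ARHGAP36 in its pathway and its family were read from lists of 134 symbols, ARHGAP36 among them. Besides ARHGAP36, 15 had an identifier. Of these 15, 10 rose and 2 fell in underfed sheep at an adjusted p under 0.1 (limma with Benjamini-Hochberg adjustment over 11148 genes) with a ratio of mean CPM above 1.5, and 3 did not pass. Over all genes tested, 16.2% were called, 10.8% higher and 5.42% lower in underfed sheep. Most symbols, however, come from the study's own list of changed genes, and of the 1763 genes with a symbol 76.7% were called, 49.7% higher and 26.9% lower. A high count among these 15 is thus built into the lists. The count was 7 without high diet replicate 5, high diet replicate 8, low diet replicate 4 or low diet replicate 6, and 5 without high diet replicates 5 and 8 together (ADCY9, STAR, FSHR, CDON and ARHGAP10).

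Of the receptors whose signal runs through cyclic AMP, 1 of 10 had an identifier. This was FSHR (ENSOARG00000004340), the FSH receptor of Sertoli cells, which rose in underfed sheep. Its lowest, median and highest values were 28.4, 38.2 and 42.0 CPM in well-fed sheep, against 52.5, 74.2 and 83.2 CPM in underfed sheep. The diets did not overlap, where 0.762% of all genes tested were higher in every underfed than in every well-fed library. The log2 difference was 0.71 (standard error 0.15, adjusted p = 0.020 from limma).

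ADCY9 (ENSOARG00000002932), an adenylyl cyclase that makes cyclic AMP, was the 1 gene with an identifier among 12 of cyclic AMP synthesis. It rose from 16.8 ± 11.7 CPM in well-fed to 63.5 ± 34.2 CPM in underfed sheep (SD, n = 8 in each), the largest log2 difference among these 15 genes at 1.82 (standard error 0.37, adjusted p = 0.018 from limma). Its range was 4.44 to 36.7 CPM in well-fed (median 13.7) and 23.3 to 119 CPM in underfed sheep (median 48.7), and 7 of 8 underfed sheep lay above every well-fed sheep. PDE1A (ENSOARG00000016802), a phosphodiesterase that breaks cyclic nucleotides down, was the 1 of 16 with an identifier and fell from 77.8 ± 21.2 to 49.2 ± 18.8 CPM (log2 difference -0.86, standard error 0.26, adjusted p = 0.047 from limma). The ranges of PDE1A overlapped, from 54.3 to 112 CPM in well-fed and from 24.8 to 84.6 CPM in underfed sheep. Its call was lost without high diet replicate 5 or 8 or low diet replicate 4 or 6.

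Of the subunits and inhibitors of protein kinase A, 1 of 11 had an identifier. PRKAR2A (ENSOARG00000016132), a regulatory subunit that holds the catalytic subunits inactive until cyclic AMP binds, had 641 ± 168 CPM in well-fed and 453 ± 160 CPM in underfed sheep. It was not called, because the ratio of means was 1.42 (log2 difference -0.70, standard error 0.24, adjusted p = 0.071 from limma). The catalytic subunits, which ARHGAP36 binds, and the 17 genes of kinase anchoring and turnover had no identifier and were not analysed here.

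Downstream, 3 of 16 genes of the CREB group were measured. EP300, a histone acetyltransferase that CREB recruits, rose from 97.5 ± 57.8 to 200.3 ± 107 CPM (log2 difference 0.91, standard error 0.33, adjusted p = 0.081 from limma). Its relative CREBBP had 51.1 ± 33.1 and 102 ± 57.8 CPM (log2 difference 0.89) and did not pass, with an adjusted p of 0.103 from limma. STAR, the cholesterol carrier that starts steroid synthesis in Leydig cells and a known target of cyclic AMP signalling, fell from 35.96 ± 19.6 to 14.1 ± 7.98 CPM (log2 difference -1.45, standard error 0.32, adjusted p = 0.020 from limma). In 6 of 8 underfed sheep STAR was below every well-fed sheep. The call of EP300 was lost without high diet replicate 1, 5, 6 or 8 or low diet replicate 4, 6 or 8, whereas that of STAR was kept without each sheep in turn.

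On the Hedgehog side, 2 of 17 genes had an identifier and both rose. PTCH, listed under the older symbol of the Hedgehog receptor Patched, was at 11.4 ± 7.31 CPM in well-fed and 24.8 ± 12.6 CPM in underfed sheep (log2 difference 0.96, standard error 0.35, adjusted p = 0.080 from limma). CDON, a co-receptor for Hedgehog ligands, was at 8.24 ± 2.90 and 18.6 ± 5.71 CPM (log2 difference 0.94, standard error 0.21, adjusted p = 0.020 from limma). For CDON 6 of 8 underfed sheep lay above every well-fed sheep, and for PTCH 4 of 8. The call of PTCH was kept in 7 of the 16 fits that left out 1 sheep, and was lost without high diet replicates 1, 2, 5, 6 or 8 and low diet replicates 2, 4, 6 or 8. That of CDON was kept in all 16.

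The list of the ARHGAP family held 35 symbols, ARHGAP36 among them. Besides ARHGAP36, 6 had an identifier, and 5 of these rose. ARHGAP10, 17, 31, 32 and 39 had log2 differences from 0.95 to 1.18, with adjusted p-values from 0.021 to 0.071 (limma). ARHGAP10 rose from 52.1 ± 17.0 to 116 ± 40.7 CPM, with 7 of 8 underfed sheep above every well-fed sheep. The identifier that the study lists under the symbol ARHGAP11B is ENSOARG00000019982, and whether the symbol fits the sheep gene was not examined. It had 32.1 ± 7.47 CPM in well-fed and 22.7 ± 7.43 CPM in underfed sheep and was not called (log2 difference -0.69, adjusted p = 0.076 from limma, ratio of means 1.41). Leaving out single sheep ended the call of ARHGAP31 in 7 of 16 fits and that of ARHGAP39 in 12, but never that of ARHGAP10, 17 or 32. The sheep in question for ARHGAP31 were high diet replicates 1, 5, 6 and 8 and low diet replicates 4, 6 and 8. For ARHGAP39 they were these 7 together with high diet replicates 3 and 7 and low diet replicates 2, 3 and 5.

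Markers of the cell types of the testis differed between diets together with ARHGAP36. These markers have an identifier mostly through the same list of changed genes, and 76.7% of all genes with a symbol were called, so calls are again built in. Of 9 Sertoli markers 5 had an identifier (FSHR, WT1, CLDN11, INHA and GATA4), and all 5 were called higher in underfed sheep. Their summed level was 113 to 164 CPM in well-fed and 198 to 532 CPM in underfed sheep, with a ratio of means of 2.34. The 2 of 5 markers of peritubular myoid cells (MYH11 and DES) were both called higher, with sums of 46.6 to 255 and 119 to 515 CPM. The 1 of 5 leukocyte markers, PTPRC, was called higher, at 10.9 to 33.6 and 19.3 to 59.4 CPM. All 4 spermatocyte markers with an identifier, of 5 listed (SYCP1, SYCP2, SYCP3 and SPO11), were called lower, with sums of 390 to 1582 CPM in well-fed and 131 to 898 CPM in underfed sheep. The 1 of 7 Leydig markers, STAR, was called lower, at 16.02 to 72.97 and 6.71 to 27.8 CPM. No marker of endothelial cells, spermatogonia, spermatids or red blood cells had an identifier, and 0 of the markers measured were at 0 in any library. Leaving out single sheep ended the call of CLDN11 (low diet replicate 3, 4 or 6), SYCP1 (high diet replicate 1, 5, 6 or 8, or low diet replicate 6), SYCP2 (the same high diet replicates, or low diet replicate 4, 6, 7 or 8) and SYCP3 (the same high diet replicates, or low diet replicate 4, 6 or 8). Without high diet replicates 5 and 8 together, 4 of the 13 markers were still called (FSHR, WT1, STAR and SPO11). In the sums the most expressed genes weigh most. In underfed sheep MYH11 averaged 292 CPM of a mean myoid sum of 309 CPM, and SYCP2 447 CPM of a mean spermatocyte sum of 567 CPM. CLDN11 averaged 148 CPM of a mean Sertoli sum of 334 CPM. The part of cell composition in the difference of ARHGAP36 was not tested.

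The ratio of ARHGAP36 between diets depended on the gene it was divided by. These divisions were chosen after the values were seen, and they are descriptions. ARHGAP36 was chosen for its rise, and most divisors have an identifier through the study's list of changed genes. By construction, a divisor that rose tends to lower the ratio from the 2.61 of undivided CPM, and one that fell tends to raise it. No part of cell composition is read from them. Divided by the summed Sertoli markers of the same sheep, ARHGAP36 was 2.09 ± 0.527 in well-fed and 2.47 ± 0.575 in underfed sheep (SD, n = 8 in each). That is a ratio of 1.18, with 1 of 8 underfed sheep above every well-fed sheep. Divided by WT1, a transcription factor of Sertoli cells, it was 20.5 ± 4.86 and 20.1 ± 2.95, a ratio of 0.980, with 0 of 8 underfed sheep above the well-fed range. Divided by FSHR it was 8.03 ± 2.16 and 11.1 ± 1.58, a ratio of 1.38. Divided by the myoid sum it was 2.82 ± 1.01 and 2.80 ± 1.03, a ratio of 0.994, and divided by PTPRC it was 17.9 ± 4.67 and 23.5 ± 6.43, a ratio of 1.32. The genes that fell gave larger ratios than the 2.61 of undivided CPM. Divided by STAR, the Leydig marker, ARHGAP36 was 10.6 ± 7.13 and 70.2 ± 35.7, a ratio of 6.60, with 7 of 8 underfed sheep above every well-fed sheep. Divided by the spermatocyte sum, the ratio was 6.62, with 0.369 ± 0.275 and 2.44 ± 2.53.

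The likeness of other genes to ARHGAP36 was taken as Pearson's r on log2 values over 16 sheep after the mean of each diet was removed, so that the diets' difference does not enter it. Over 11147 genes the median r was 0.01, and 90% of genes lay between -0.62 and 0.63. The points share their libraries, and within diets a first component that held 57.9% of the variance had r = 0.54 in size with ARHGAP36. Its r within diets was 0.58 with the TMM factor and -0.37 with the library total. In 2 genes r was above 0.9 and in 46 above 0.8.

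**Figure D2:**
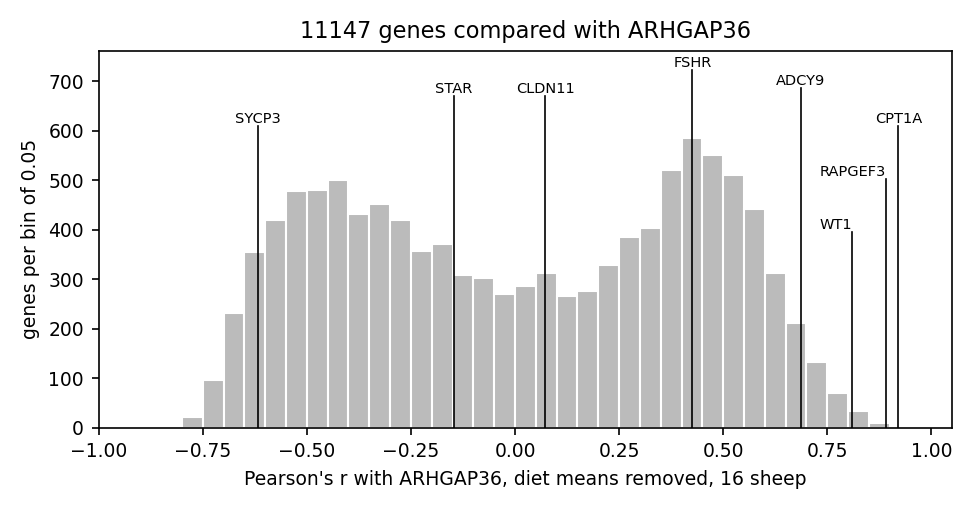
Number of genes (bins of 0.05) by their Pearson's r with ARHGAP36 over 16 sheep with diet means removed, with named genes marked by lines. The genes form a hump on each side of 0, and CPT1A at 0.92 and RAPGEF3 at 0.89 lie at the far right.

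The gene most like ARHGAP36 was CPT1A (ENSOARG00000016505), which passes long-chain fatty acids to the mitochondria for oxidation, with r = 0.92. Its lowest, median and highest values were 29.8, 58.1 and 76.98 CPM in well-fed sheep, against 69.95, 110.2 and 161 CPM in underfed sheep. TMTC4, a protein of the endoplasmic reticulum, followed at r = 0.91. RAPGEF3 (ENSOARG00000019400), the exchange factor EPAC1, which is a direct sensor of cyclic AMP beside protein kinase A, came next at r = 0.89. The corresponding values of RAPGEF3 were 3.02, 6.01 and 13.7 CPM, against 11.3, 20.3 and 28.1 CPM, with r = 0.85 within well-fed and 0.96 within underfed sheep. It was in none of the lists of the pathway.

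The other 7 of the 10 highest were OTOA (otoancorin), KIDINS220 (a membrane scaffold of neurotrophin signalling), ENSOARG00000015246, MBNL2 (a splicing regulator), AOX1 (aldehyde oxidase), NONO (a paraspeckle protein) and OCRL (a phosphoinositide phosphatase), with r from 0.85 to 0.88. P4HA2, a collagen prolyl hydroxylase, was the tenth of those with a symbol at r = 0.85. Of the 10 highest, 9 were called higher in underfed sheep, and ENSOARG00000015246 was not (log2 difference 0.45, adjusted p = 0.15 from limma). The 9 called all have a symbol and the 1 not called has none, and 10.8% of all genes but 49.7% of genes with a symbol were called higher. These 9 were still called without high diet replicates 5 and 8 together and without each single sheep. KIDINS220 and OCRL were higher in every underfed than in every well-fed sheep. This held for 0.762% of the 11148 genes tested, and the share among genes with a symbol was not computed. KIDINS220 ranged from 131 to 309 and from 324 to 521 CPM, and OCRL from 33.2 to 70.2 and from 75.04 to 144 CPM.

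**Figure D3:**
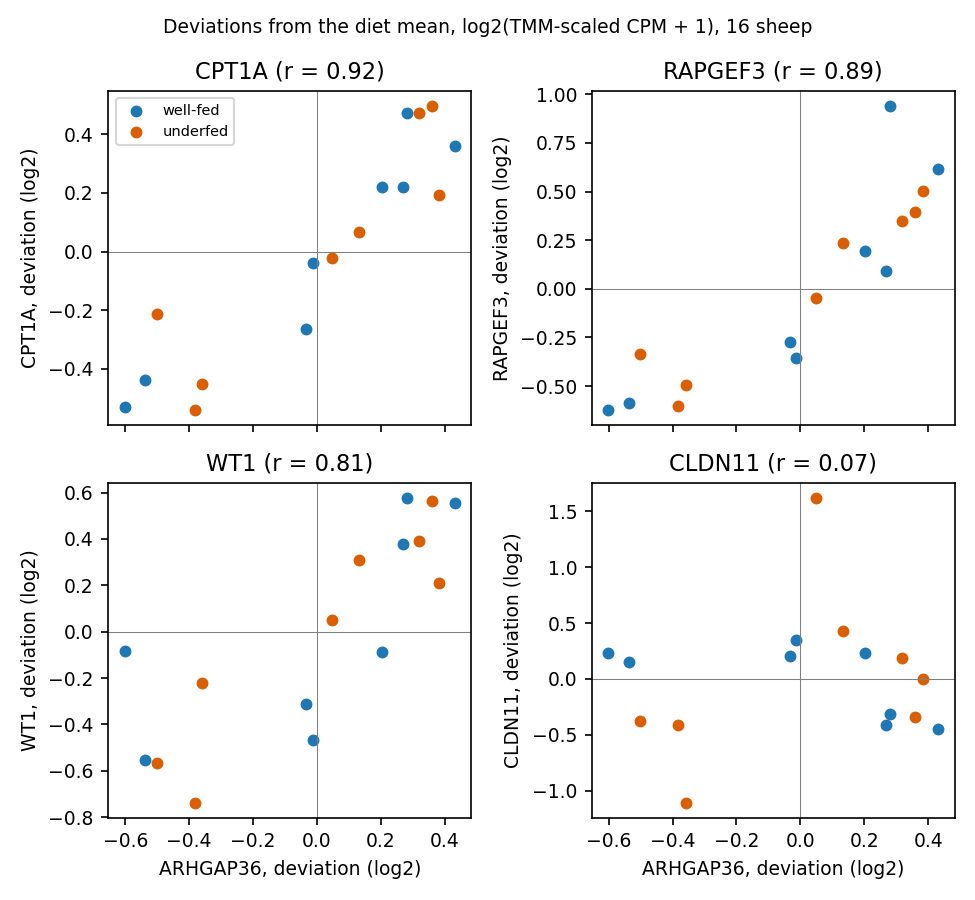
Deviation of each sheep from its diet's mean (log2 of TMM-scaled CPM + 1) for ARHGAP36 (x axis) and for CPT1A, RAPGEF3, WT1 and CLDN11 (y axes, 8 well-fed and 8 underfed sheep). The points follow a rising line for CPT1A (r = 0.92), RAPGEF3 (r = 0.89) and WT1 (r = 0.81). For CLDN11 r was 0.07 over all sheep, -0.66 within well-fed and 0.40 within underfed sheep.

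The ranking was less firm than the single values. When single sheep were left out, r of CPT1A stayed between 0.91 and 0.94 and that of RAPGEF3 between 0.88 and 0.94. The number of the same genes among the 10 highest was 4 without high diet replicate 1, 5 without low diet replicate 5 and 6 without low diet replicate 2 or 7, and otherwise 7 to 9. Without high diet replicates 5 and 8 it was 7. Of the 10 highest by r within well-fed sheep alone, 0 were among the reported 10, and of those within underfed sheep alone, 1 was. Within well-fed sheep alone 1056 genes had r above 0.8 and within underfed sheep 93, and 20 genes had it in both. At the other end, the 5 lowest were ENSOARG00000010389, ENSOARG00000018752, ENSOARG00000008720, ENSOARG00000000428 and ENSOARG00000015828, with r from -0.85 to -0.80, and the files used here pair none of them with a symbol.

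The listed genes varied in their likeness to ARHGAP36. Among the pathway genes, r was 0.69 for ADCY9, 0.65 for PTCH, 0.46 for CDON, -0.51 for PRKAR2A, -0.66 for PDE1A and -0.15 for STAR. In the ARHGAP family it ran from -0.32 for the identifier listed as ARHGAP11B to 0.74 for ARHGAP31. The 5 Sertoli markers spread from 0.07 for CLDN11 to 0.81 for WT1. For CLDN11 it was -0.66 within well-fed and 0.40 within underfed sheep. For FSHR it was 0.43 over all sheep, 0.06 within well-fed and 0.84 within underfed sheep. For WT1 it was 0.70 within well-fed and 0.92 within underfed sheep. The summed markers, in which the most expressed genes weigh most, had r = 0.46 for Sertoli cells, 0.68 for peritubular myoid cells and -0.36 for spermatocytes. PTPRC had r = 0.62. The likeness was thus not particular to Sertoli markers.

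In the RefSeq gene order of the assembly ARS-UI_Ramb_v3.0, ARHGAP36 lies between LOC101121326 and ENOX2, with IGSF1 next beyond the former. None of these 3 had an identifier. MBNL3, another splicing regulator of the family of MBNL2, lies 9 protein-coding genes away and was singled out after its values were seen. It had r = 0.84 with ARHGAP36, the 15th highest, and 36.2 ± 12.9 CPM in well-fed and 75.3 ± 23.6 CPM in underfed sheep.

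Whether ARHGAP36 followed the state of the testis was asked with the 6 traits that the study recorded for the same sheep, within diets, which the choice of the gene did not use. None of the 6 relations had a p under 0.05 over 16 sheep with diet means removed. The relation nearest to it was that with testis weight, with r = -0.48 (permutation test, two-sided, p = 0.057, adjusted p = 0.34 over 6 traits, n = 16) and a Spearman's coefficient of -0.43 (permutation test, p = 0.10, n = 16). Without the 2 sheep whose testis weight, less the diet mean, lay farthest from the median, r was -0.30. Leaving out single sheep kept it between -0.57 and -0.42, and the unadjusted p of the permutation test ran from 0.023 to 0.13, with 3 of 16 under 0.05 and 0 after adjustment. On library totals, without TMM factors, r was -0.54 (permutation test, p = 0.023, adjusted p = 0.14).

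For seminiferous epithelium volume r was -0.42 (permutation test, p = 0.12, n = 16, or 0.35 after adjustment), while Spearman's coefficient was -0.35 (permutation test, p = 0.21). For tubule diameter r was -0.28 (permutation test, p = 0.32, or 0.44 after adjustment), while Spearman's coefficient was -0.34 (permutation test, p = 0.22). Without the 2 farthest sheep these r were -0.29 and -0.24. The change in scrotal circumference had r = 0.25 (permutation test, p = 0.37, or 0.44 after adjustment) with a Spearman's coefficient of 0.15 (permutation test, p = 0.61), and apoptotic germ cells per tubule had r = 0.29 (permutation test, p = 0.32, or 0.44 after adjustment) with a Spearman's coefficient of 0.08 (permutation test, p = 0.77). These r became 0.01 and -0.08 without the 2 farthest sheep, whose removal also narrows the range of the trait. Sperm number per testis had r = 0.06 (permutation test, p = 0.86, also after adjustment) with a Spearman's coefficient of -0.12 (permutation test, p = 0.65), and r was -0.40 without the 2 farthest sheep.

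Taken within each diet, none of 12 relations had a p under 0.05 in the exact permutation test over 40320 orders of 8 sheep, and the adjusted p-values were between 0.59 and 0.77. With testis weight, the 8 well-fed sheep gave r = -0.33 (p = 0.42, exact permutation test) and the 8 underfed sheep r = -0.61 (p = 0.099, exact permutation test). With sperm number, r was -0.59 under the high diet and 0.32 under the low diet (p = 0.14 and 0.49, exact permutation tests), and with apoptotic germ cells it was -0.34 and 0.49 (exact permutation tests, p = 0.43 and 0.21). Without the 2 farthest sheep of the underfed group, r with sperm number was -0.60. The difference of r between diets was tested for all 6 traits and did not pass, with p = 0.18 for sperm number and p = 0.15 for apoptotic germ cells (permutation tests, two-sided, adjusted p = 0.55 for both).

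**Figure D4:**
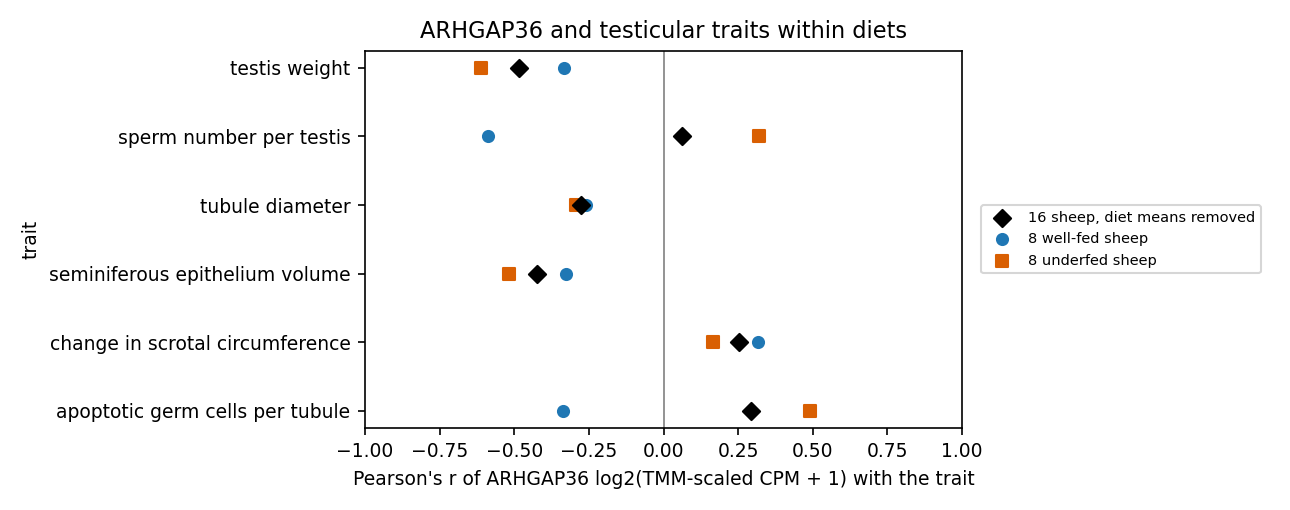
Pearson's r of ARHGAP36 (log2 of TMM-scaled CPM + 1) with 6 testicular traits, over 16 sheep with diet means removed (diamonds) and within the 8 well-fed (circles) and 8 underfed sheep (squares). Testis weight, tubule diameter and epithelium volume lie below 0 in both diets, and sperm number and apoptotic germ cells lie on opposite sides of 0 in the diets, while no relation had a p under 0.05.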

How the data were processed

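The authors aligned paired-end reads to OAR3.1 with TopHat2 2.0.10 after base calling with CASAVA 1.8, per the labels, counted them on Ensembl genes with HTSeq and deposited CPM for 1 library per sheep. The strand setting of the counting was not given in the sources used here, so reads of overlapping antisense genes cannot be told apart. All values were whole multiples of 1 read, and reads were recovered from them. A gene's CPM covers all its transcripts.

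The 11148 genes that exceeded 5 CPM in 8 or more libraries were compared with limma 3.58.1, with its trend option, on log2(TMM-scaled CPM + 1), with TMM factors from edgeR, and p-values were adjusted over all of them by Benjamini-Hochberg. Genes were called at an adjusted p under 0.1 and a ratio of mean CPM above 1.5, after the study's methods. Trait values of the study's supplement were correlated with numpy 2.4.6 in Python 3.11.15, with 100000 resamples within diets, or exactly within 1 diet.

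Symbols came from supplementary lists of the study, 1 of them shortened. ARHGAP36 and the gene lists were chosen with earlier results of these data known. The genes named were ARHGAP36, list members with an identifier, the 10 highest and 5 lowest in r, the 10 highest with a symbol, and neighbours in RefSeq. Alternatives were count tests on recovered reads (edgeR 4.0.16 quasi-likelihood, DESeq2 1.42.0 in R 4.3.3), other scalings, filters, thresholds and pseudocounts, a block on the replicate number, adjustment for testis weight and each sheep left out. Those without high diet replicates 5 and 8, all for the ranking by r and all for counts of listed, marker and alike genes called were added after the data were seen. Fits were tested on simulated data.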

Additional observations from a re-analysis of the deposited data

Results flagged for a closer look

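In the 8 well-fed sheep FSHR was lowest in replicate 1, at 28.4 CPM. Its gap to the next sheep was 0.526 of the group's whole range, at the critical value of Dixon's test for 8 samples. Chance flags about 1 in 20 groups.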

How the results depend on the processing

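The log2 difference of ARHGAP36 between diets kept its direction under every alternative run, from 0.90 with testis weight as a covariate to 1.40 on library totals, and from 1.14 (without high diet replicate 1) to 1.30 (without low diet replicate 5) with each sheep left out. It was 1.23 with the replicate number as a block, with edgeR's quasi-likelihood fit and with a pseudocount of 0.1 CPM, 1.25 with DESeq2 and 1.14 with DESeq2 size factors. Over all genes, 1808 were called (1204 higher, 604 lower in underfed sheep), 2018 without TMM factors (1563 higher, 455 lower), 837 at an adjusted p under 0.05, 0 with testis weight as a covariate (limma, 544 at an unadjusted p under 0.05) and 268 without high diet replicates 5 and 8. With each sheep left out the count ran from 674 (without low diet replicate 6) to 2684 (without low diet replicate 1), and it was 1018, 836, 930 and 865 without high diet replicates 1, 5, 6 and 8 and 843 without low diet replicate 4. With the replicate block it was 1067. Same-numbered sheep did not deviate together on average (mean r -0.15, from -0.63 to 0.70, against 0.02 for different numbers). Of 8 numbers 2 had r above 0.1, and 1 of 8 sheep was closest to its own number. The labels give no pairing by number, and these r cannot exclude one. Of the 15 listed genes with an identifier, 12 were called in the main fit and 9 with the block. The count was 0 with testis weight as a covariate, 5 without high diet replicates 5 and 8, and 7 to 14 with each sheep left out. The r with sperm number turned to -0.36 without low diet replicate 2 and to -0.03 without low diet replicate 5, within a range of -0.36 to 0.15. The ranges with each sheep left out were -0.47 to -0.14 for tubule diameter, -0.51 to -0.33 for epithelium volume, 0.05 to 0.41 for scrotal circumference and 0.07 to 0.37 for apoptotic germ cells. Testis weight overlaps with diet, so nothing about its part is read from the fits with that covariate. The cause of these moves was not tested.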

Other observations

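Of the 46 genes with r above 0.8 with ARHGAP36, a limit chosen after the values were seen, 40 were called higher in underfed sheep, 0 lower and 6 not at all, where 10.8% of all genes compared were called higher and 5.42% lower. Of the 46, however, 38 had a symbol, and of all genes with a symbol 49.7% were called higher and 26.9% lower. Without high diet replicates 5 and 8 together, 29 of the 40 were still called. In order of r, the next genes with a symbol after those named in the text were FUCA2, a fucosidase (r = 0.85), GLB1, a lysosomal galactosidase (r = 0.83), UBQLN2, a ubiquitin receptor (r = 0.83), COL4A4, a collagen of basement membranes (r = 0.83), and PYGL, a glycogen phosphorylase (r = 0.83). COL4A4 had 47.6 ± 17.3 CPM in well-fed and 118 ± 39.8 CPM in underfed sheep (SD, n = 8 in each).

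Divided by RAPGEF3 of the same sheep, ARHGAP36 was 47.6 ± 10.6 in well-fed and 40.9 ± 4.50 in underfed sheep, and divided by CPT1A it was 5.56 ± 0.502 and 7.07 ± 0.821 (SD, n = 8 in each). These divisions were chosen after the values were seen, and both divisors were themselves called higher in underfed sheep, which tends to lower the ratio.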
